A study of Sus scrofa with 10 samples.

Results

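The 10 genes described here were listed together as muscle ubiquitin ligases, a label that was not tested for each gene. They encode ubiquitin ligases, or the substrate-binding parts of ubiquitin ligases. They are the ankyrin repeat and SOCS box (ASB) genes ASB2, ASB11, ASB14 and ASB15, the F-box genes FBXO32 and FBXO40, the tripartite motif genes TRIM63 and TRIM55, and the RING finger genes RNF207 and LNX1. They were taken by gene symbol, and all 10 were found among the 12378 genes of the deposited table that carry a symbol (another 3260 carry none). They were chosen by their function and by the measured log2 difference between CTEPH and Sham in these same libraries, so their values are a description of these pigs and carry no test of their own.

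RNA was sequenced from right ventricular biopsies of 5 pigs with chronic thromboembolic pulmonary hypertension (CTEPH, libraries s1, s3, s4, s5 and s9) and 5 Sham pigs (libraries s2, s6, s7, s8 and s10). Each library was taken as a separate pig, since the sample titles give no animal identifier. In CTEPH, organised clots obstruct the pulmonary arteries and the right ventricle pumps against a raised pressure. The sources used here do not give the strain, age or sex of the pigs, the way the disease was produced, or a batch. The values are on a log2 scale, normalised to nearly the same distribution in every library and not scaled to gene length, so levels are compared between libraries and not between genes. Group values below are means with the SD over the 5 libraries of each group, differences are CTEPH minus Sham with their SE, and adjusted p-values are from limma over all genes.

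Proteins marked for breakdown carry chains of ubiquitin, which an activating enzyme, a conjugating enzyme and a ligase attach in turn, and the ligase chooses the substrate. ASB proteins hold the substrate through their ankyrin repeats and dock through the SOCS box and the elongins on cullin 5, whereas F-box proteins dock through SKP1 on cullin 1. RING proteins such as TRIM63 bring the conjugating enzyme themselves. FBXO32 (atrogin-1) and TRIM63 (MuRF1) are the classical ligases raised in wasting skeletal muscle, and both act on contractile and signalling proteins in the heart.

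Of the members, 4 were lower in CTEPH at an adjusted p under 0.05, against 1.79% of all genes, and 0 were higher, against 2.83% of all genes (limma, Benjamini-Hochberg over all genes). Either direction was called for 4.62% of all genes. At an unadjusted p under 0.05, 6 members were lower and 0 higher, against 10.5% and 9.84% of all genes. The 4 called members were ASB14 (ENSSSCG00000035320), ASB15 (ENSSSCG00000016606), RNF207 (ENSSSCG00000003368) and LNX1 (ENSSSCG00000008838), and the other 6 did not pass. The median log2 difference (CTEPH minus Sham) was -0.46 over the members and -0.03 over all genes. In 9 members the difference was negative, as it was for 53.6% of all genes. Because this contrast chose the members, nothing is read from these counts.

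**Figure D1:**
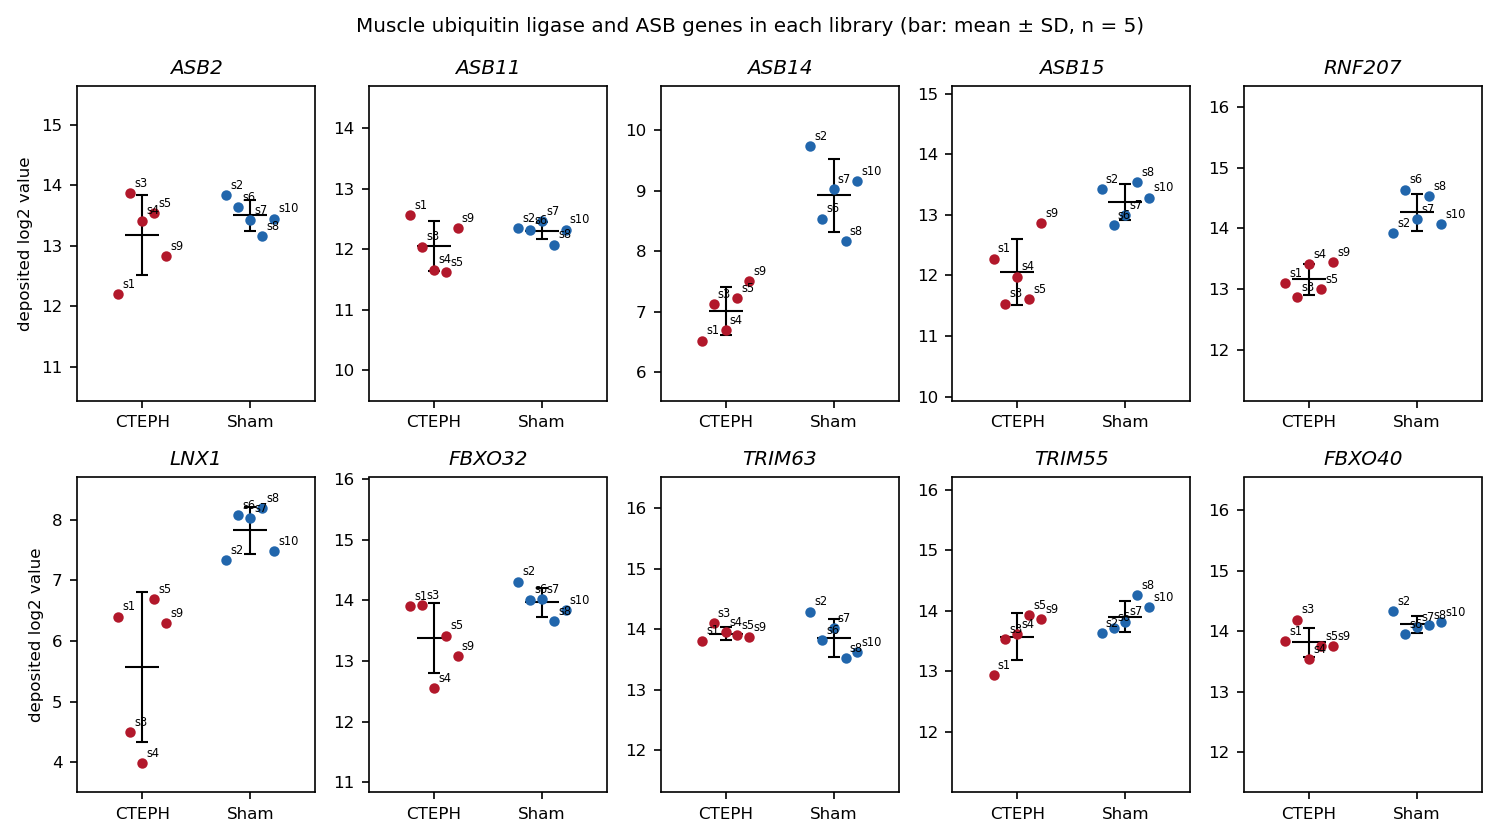
Deposited log2 value of each member (vertical axis, the same span in every panel) in each CTEPH library (red, left) and each Sham library (blue, right), with the mean and SD of 5 libraries as bars. The groups are apart in ASB14, RNF207 and LNX1 and overlap in the other 7 genes.

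ASB14 (chromosome 13, 39121461 to 39147490 of Sscrofa11.1) was the lowered member with the widest gap between the groups. Its log2 values were 6.52, 7.13, 6.70, 7.22 and 7.51 in CTEPH libraries s1, s3, s4, s5 and s9, against 9.74, 8.54, 9.02, 8.17 and 9.16 in Sham libraries s2, s6, s7, s8 and s10. Every CTEPH library lay below every Sham library, with a distance of 0.66 between the highest CTEPH and the lowest Sham library. Among all genes, 2.87% had all CTEPH libraries below every Sham library, and 3.70% had all above. The mean was 7.02 ± 0.40 in CTEPH, against 8.93 ± 0.60 in Sham, a log2 difference of -1.91 ± 0.29, or 3.76-fold lower. In these bulk samples, fewer cells of a type and less RNA per cell cannot be told apart.

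The low values of ASB14 could be read back as whole counts. They were 44, 65, 88, 82 and 66 in the CTEPH libraries s1 to s9 and 509, 267, 196, 115 and 240 in the Sham libraries s2 to s10, in the order above. Divided by the relative depth of each library, the counts averaged 67.7 ± 18.2 in CTEPH, against 258.9 ± 109.5 in Sham. The relative depth itself was 1.05 ± 0.299 in CTEPH, against 1.01 ± 0.300 in Sham libraries (exact permutation test, two-sided, p = 0.833, where 0.00794 is the smallest that this design allows).

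ASB15 (chromosome 18, 23826025 to 23881794) had log2 values of 12.28, 11.53, 11.98, 11.61 and 12.87 in the CTEPH libraries, against 13.42, 12.83, 12.99, 13.55 and 13.29 in the Sham libraries. The groups met at one point, because CTEPH library s9 stood 0.04 above Sham library s6. The other 4 CTEPH libraries lay below every Sham library. The mean was 12.06 ± 0.54 in CTEPH, against 13.21 ± 0.30 in Sham, a log2 difference of -1.16 ± 0.24, or 2.23-fold lower.

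The 2 other muscle ASB members did not pass, and their lowest libraries were not the same ones. ASB2, whose protein in mouse muscle and blood cells targets filamins, had log2 values of 12.21, 13.87, 13.42, 13.54 and 12.83 in the CTEPH libraries, against 13.83, 13.64, 13.42, 13.16 and 13.45 in the Sham libraries. CTEPH libraries s1 and s9 were below the Sham range, s3 was above it and s4 and s5 were inside it. The log2 difference of ASB2 (chromosome 7, 115210885 to 115258863) was -0.33 ± 0.27. It was -0.09 without library s1, -0.50 without s3 and -0.15 with library weights. ASB11 (chromosome X, 11842855 to 11871040) had log2 values of 12.57, 12.04, 11.66, 11.63 and 12.35 in CTEPH and of 12.08 to 12.47 in Sham, a difference of -0.26 ± 0.18. The difference of ASB11 was -0.39 without s1, -0.16 without s4 and -0.15 without s5. In this gene s1 was the highest of all 10 libraries, whereas it was the lowest in ASB2 and in ASB14.

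RNF207 (chromosome 6, 67105347 to 67119167) encodes a RING finger protein of heart muscle, known from rabbit cardiomyocytes as a partner of the HERG potassium channel. Its log2 values were 13.10, 12.86, 13.41, 12.99 and 13.44 in the CTEPH libraries, against 13.92, 14.64, 14.16, 14.54 and 14.07 in the Sham libraries. The groups did not overlap and were 0.48 apart at their nearest libraries. The mean was 13.16 ± 0.25 in CTEPH, against 14.27 ± 0.31 in Sham, a log2 difference of -1.11 ± 0.17, or 2.15-fold lower. RNF207 had the smallest SE of the 4 lowered members.

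LNX1 (chromosome 8, 40232837 to 40473101) encodes a RING and PDZ domain protein, known in mouse as a ligase for the cell fate protein NUMB. Its log2 values were 6.40, 4.50, 3.98, 6.69 and 6.30 in the CTEPH libraries, against 7.33, 8.08, 8.03, 8.20 and 7.48 in the Sham libraries. All CTEPH libraries lay below every Sham library, and within CTEPH s3 and s4 stood well under the other 3. The mean was 5.57 ± 1.24 in CTEPH, against 7.83 ± 0.39 in Sham, a log2 difference of -2.25 ± 0.49, or 4.76-fold lower. This was the largest difference among the members and also the least precise.

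The counts read back for LNX1 were 40, 10, 13, 57 and 28 in the CTEPH libraries and 91, 197, 97, 117 and 74 in the Sham libraries. Scaled by relative depth they averaged 30.0 ± 19.4 in CTEPH, against 114.5 ± 30.9 in Sham, a ratio of means of 3.81. With 1 library left out at a time, LNX1 was no longer called without Sham library s6 (adjusted p = 0.0543), s7 (0.0522) or s8 (0.0548). ASB14, ASB15 and RNF207 were called in all 10 such fits.

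FBXO32, the first of the wasting ligases, was spread widely among the CTEPH pigs. Its log2 values were 13.90, 13.92, 12.55, 13.42 and 13.08 in the CTEPH libraries, against 14.31, 14.01, 14.03, 13.66 and 13.84 in the Sham libraries. Libraries s4, s5 and s9 lay below the Sham range and s1 and s3 inside it. The log2 difference was -0.59 ± 0.24 and did not pass (chromosome 4, 15895875 to 15925929), and without s4 it was -0.39.

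TRIM63 (chromosome 6, 83493200 to 83507471) was at nearly one level in the CTEPH pigs. Its log2 values were 13.81, 14.10, 13.95, 13.90 and 13.87 in the CTEPH libraries, against 14.29, 13.81, 14.02, 13.52 and 13.63 in the Sham libraries, and the CTEPH range lay wholly inside the Sham range. The difference of 0.07 ± 0.15 turned negative without Sham library s8 (-0.0095) or with each library centred on cardiomyocyte markers (-0.025). Its relative TRIM55 (MuRF2; chromosome 4, 68487249 to 68530927) had log2 values of 12.94 to 13.93 in CTEPH and 13.63 to 14.26 in Sham, with s1 the lowest, and a difference of -0.32 ± 0.19. Without s1 the difference of TRIM55 was -0.17.

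FBXO40, a ligase for the insulin receptor substrate IRS1 in mouse muscle, had log2 values of 13.84, 14.19, 13.54, 13.75 and 13.75 in the CTEPH libraries, against 14.33, 13.95, 14.06, 14.10 and 14.14 in the Sham libraries. In 4 CTEPH libraries it lay below every Sham library, and s3 was within the Sham range. The difference of -0.30 ± 0.14 was small and did not pass (chromosome 13, 138881528 to 138905410).

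**Figure D2:**
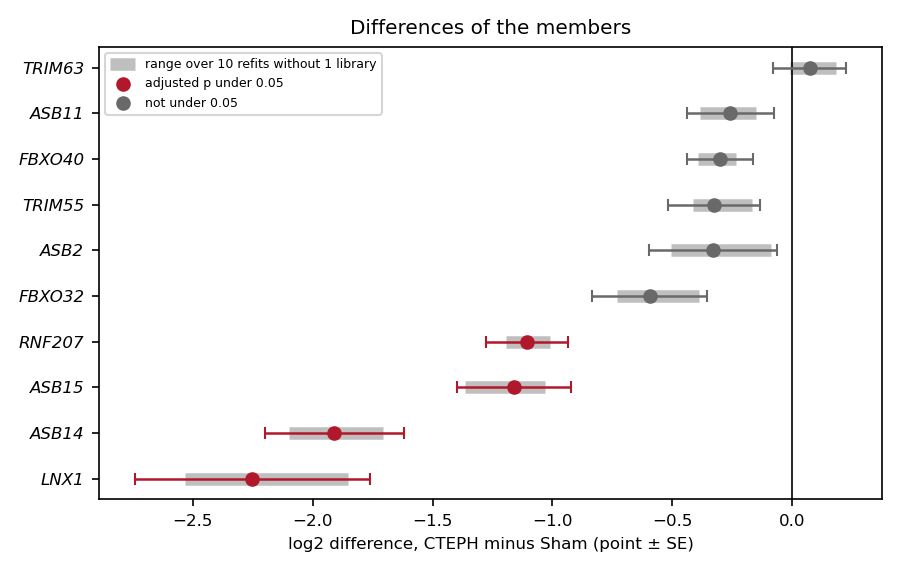
Log2 difference (CTEPH minus Sham, horizontal axis) of each member with its SE, over the grey range of its 10 values with 1 library left out. Red marks the 4 genes at an adjusted p under 0.05, which lie between -2.25 and -1.11, and the other 6 lie between -0.59 and 0.07.

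The members did not move as one block from pig to pig. After the group mean was removed from each gene, the Pearson r over the 10 libraries had a median of 0.087 over the 45 pairs of members and was positive in 26 of them. These values describe libraries that share depth and normalisation, and they are given without a test. FBXO32 and FBXO40 were the pair most alike (r = 0.76), followed by ASB14 and TRIM63 (r = 0.65). RNF207 ran opposite to FBXO40 (r = -0.74) and to FBXO32 (r = -0.65), and ASB2 ran opposite to ASB15 (r = -0.64) and to ASB11 (r = -0.63).

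Among the 4 lowered members, r was 0.31 for ASB15 and RNF207, 0.25 for ASB15 and LNX1, 0.15 for RNF207 and LNX1, 0.13 for ASB14 and ASB15, -0.08 for ASB14 and LNX1, and -0.57 for ASB14 and RNF207. The spread within CTEPH exceeded that within Sham in 7 of the 10 members, from LNX1 (SD 1.24 in CTEPH and 0.39 in Sham) down to TRIM55 (0.39 in CTEPH and 0.26 in Sham). TRIM63 was the reverse, with an SD of 0.11 in CTEPH and 0.31 in Sham. The share of all genes with the larger SD in CTEPH was not counted, so this is not read as a trait of the members. The library weights, fitted over all genes and lower for noisier libraries, were 0.48 to 1.17 in CTEPH and 0.89 to 2.16 in Sham.

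**Figure D3:**
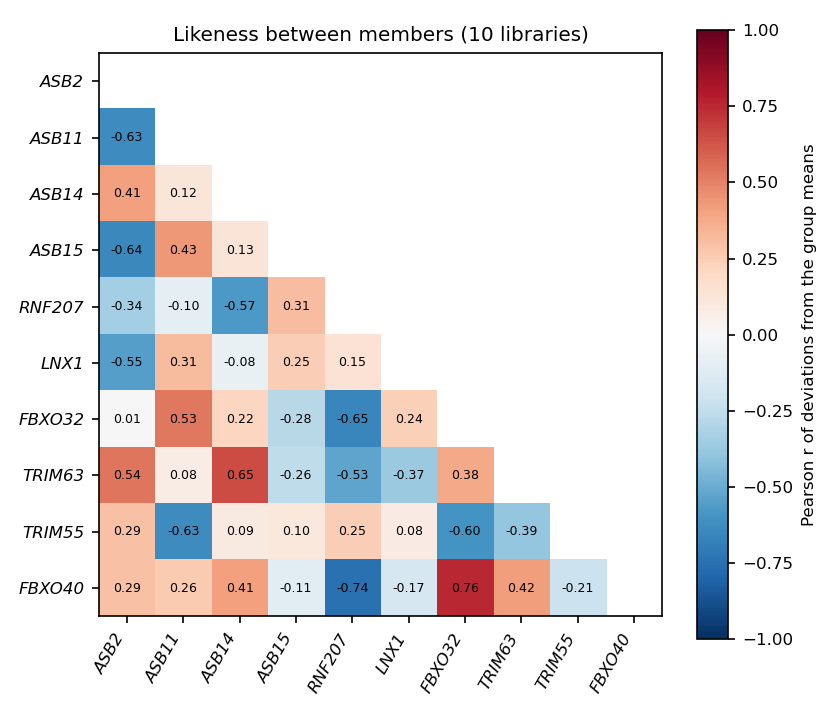
Pearson r between members (rows and columns) of the deviations from the group means over 10 libraries, with blue below 0 and red above 0. The values run from -0.74 for RNF207 with FBXO40 to 0.76 for FBXO32 with FBXO40.

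The gene most like each member was sought by the same measure among 12377 other genes with a symbol. With so many genes the best r was high for every member, and the 3 nearest genes of each ran from 0.895 to 0.987. ASB2 was nearest to IGSF3 (r = 0.99), ASB11 to TUT1 (0.96), ASB14 to SGCE, the sarcoglycan epsilon gene (0.97), and ASB15 to RPA3 (0.96). RNF207 was nearest to MAX (0.94), LNX1 to FAM135A (0.97), TRIM63 to MYOM3, a myomesin of the sarcomeric M-band (0.95), TRIM55 to ST8SIA1 (0.97) and FBXO40 to TRIM9 (0.91). FBXO32 was nearest to CUL1 (0.92), the cullin of its own class of ligase, which stood at 11.70 ± 0.15 in CTEPH, against 11.69 ± 0.08 in Sham. None of these 30 nearest genes was called between the groups, where 4.62% of all genes were called.

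The rest of the ASB family was measured in 12 of 14 listed genes. By limma 0 passed in either direction, and the median log2 difference was -0.20. At an unadjusted p under 0.05, 3 were lower and 0 higher, against 10.5% and 9.84% of all genes. All 12 differences were negative, from -1.15 to -0.04, where 53.6% of all genes had a negative difference. ASB5, another muscle member of the family, had log2 values of 8.32, 9.46, 9.72, 9.57 and 9.68 in the CTEPH libraries, against 10.57, 9.88, 10.25, 10.23 and 10.19 in the Sham libraries. The groups did not overlap, but the difference of -0.88 ± 0.25 did not pass (adjusted p = 0.0660). ASB5 did pass with each library centred on cardiomyocyte markers (adjusted p = 0.0354), with library weights (0.0355) and without library s1 (0.0363); over its other alternatives the adjusted p was 0.0535 to 0.133.

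ASB18 averaged 8.55 ± 0.65 in CTEPH, against 9.71 ± 0.76 in Sham (adjusted p = 0.0996). ASB9, which neighbours ASB11 on chromosome X, averaged 7.09 ± 0.93 in CTEPH, against 7.28 ± 0.19 in Sham. Over all 16 measured ASB genes, library s1 was the lowest of the CTEPH group in 6 and s5 in 5, against 23.9% and 19.0% of all genes.

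The cullin cores on which the ASB and F-box members dock showed no call in the genes measured. By limma 0 of 6 measured genes of the cullin 5 core passed (8 were listed), and 0 of 11 genes of the cullin 1 core. At an unadjusted p under 0.05, counted below as before adjustment, these were 0 and 1. The median log2 differences were 0.07 and 0.0098. The ubiquitin-like modifier gene NEDD8, which activates cullins, stood at 12.07 ± 0.16 in CTEPH, against 11.90 ± 0.15 in Sham, and the cullin 5 RING partner RNF7 at 11.93 ± 0.35 in CTEPH, against 11.73 ± 0.11 in Sham. In the cullin 1 core the conjugating enzyme gene UBE2R2 was at 0.35 ± 0.16 and the NEDD8-activating enzyme gene UBA3 at 0.21 ± 0.11 on the log2 difference scale. With each library centred on cardiomyocyte markers, the differences were 0.065 for NEDD8, 0.10 for RNF7 and 0.12 for UBA3, and that of RNF7, 0.20 without centring, was 0.34 without s1 and 0.10 without s9.

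Other ligases of muscle were measured in all 26 listed genes, and 0 passed by limma (3 before adjustment, all of them lower). PDZRN3, a ligase related to LNX1, was at 10.51 ± 0.23 in CTEPH, against 10.99 ± 0.14 in Sham (adjusted p = 0.0727), and NEDD4 at -0.61 ± 0.22 on the log2 difference scale. PDZRN3 did pass with library weights (adjusted p = 0.0446) and without s9 (0.0428). Among 16 genes of cullin 3 and its kelch adaptors, 1 fell and 0 rose, with a median log2 difference of -0.29. Before adjustment 5 were lower and 0 higher, against 10.5% and 9.84% of all genes. The fallen gene was KLHL40, which protects thin filament proteins in mouse muscle. Its log2 values were 10.43, 10.14, 10.14, 10.63 and 10.64 in the CTEPH libraries, against 10.86, 11.36, 11.36, 11.15 and 10.89 in the Sham libraries, and the groups did not overlap. Its difference was -0.73 ± 0.16 (adjusted p = 0.0217), and the call was lost without s3, s4, s6 or s7, with an adjusted p of up to 0.0625.

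**Figure D4:**
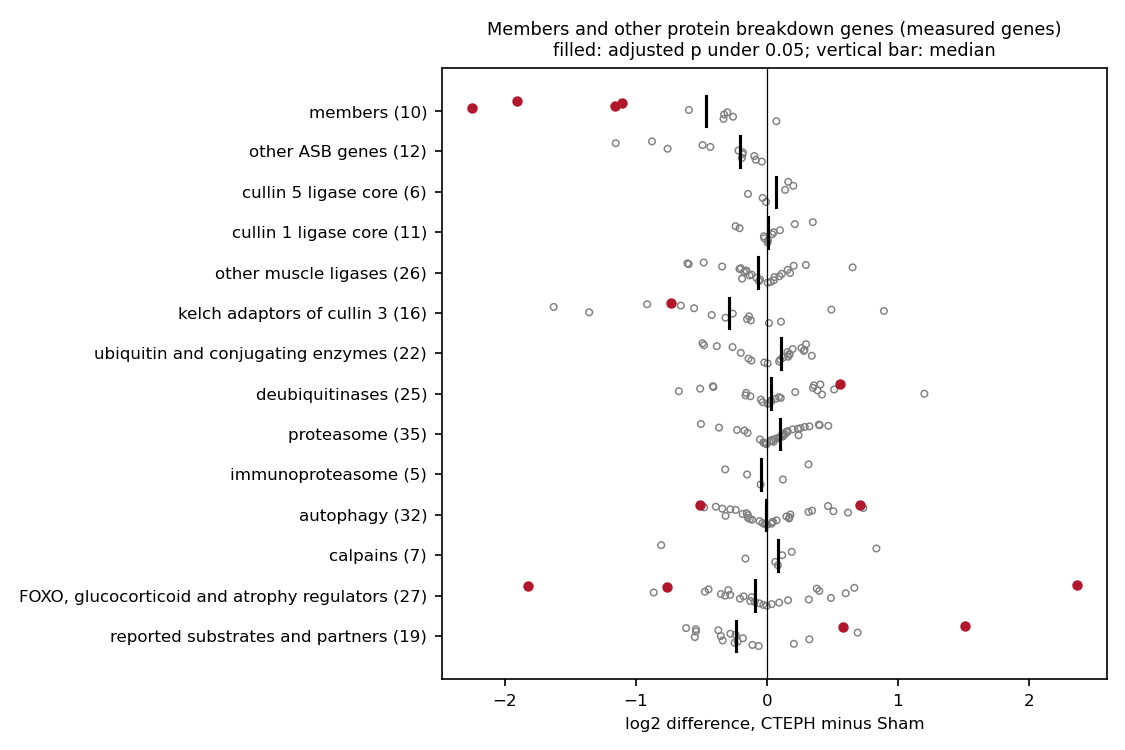
Log2 difference (CTEPH minus Sham, horizontal axis) of every measured gene of the members and of 13 lists of protein breakdown genes, with the number measured in brackets, filled points at an adjusted p under 0.05 and a bar at the median. Of the 10 members, which this contrast chose, 4 are called, all below 0. Of the 240 genes of the 13 lists together, 9 are called, 5 above 0 and 4 below 0, where 4.62% of all genes were called. The counts of members and lists are not compared, because of how the members were chosen.

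Ubiquitin, its conjugating enzymes and the proteasome held no called gene. By limma 0 of 22 genes of ubiquitin and its conjugating enzymes passed (2 lower and 1 higher before adjustment). Of 35 proteasome genes 0 passed (2 lower and 5 higher before adjustment, against 10.5% and 9.84% of all genes). The conjugating enzyme gene UBE2A was at 11.22 ± 0.11 in CTEPH, against 10.92 ± 0.06 in Sham (adjusted p = 0.150). The proteasome inhibitor gene PSMF1 was at -0.50 ± 0.14 and the regulatory particle gene PSMD6 at 0.40 ± 0.11 on the log2 difference scale (adjusted p = 0.0541 and 0.0642). In both genes the groups did not overlap, but neither passed. PSMF1 did pass with library weights (adjusted p = 0.0205), without s1 (0.0405) and without s9 (0.0464), and PSMD6 with library weights (0.0451). By limma 0 of 5 immunoproteasome genes passed (0 before adjustment), and PSME1 and PSMB8 were at 0.32 ± 0.17 and -0.32 ± 0.26 on the same scale. Without Sham library s2 they were at 0.185 and -0.52, and without Sham library s8 PSMB8 was at -0.19.

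Among 25 deubiquitinase genes, which encode enzymes that remove ubiquitin, USP15 rose and 0 fell (4 higher and 3 lower before adjustment). It averaged 11.18 ± 0.25 in CTEPH, against 10.62 ± 0.16 in Sham, a log2 difference of 0.56 ± 0.15 (adjusted p = 0.0462). The call was lost without any one of s3, s4, s5, s6, s7, s8 or s10, with an adjusted p of up to 0.114.

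The other routes of protein breakdown looked at were autophagy and the calpains, where 4.62% of all genes were called in either direction. Among 32 autophagy genes, the lysosomal transcription factor gene TFEB fell and the autophagy receptor gene OPTN rose (3 lower and 3 higher before adjustment). TFEB averaged 10.64 ± 0.18 in CTEPH, against 11.15 ± 0.05 in Sham, and OPTN 13.95 ± 0.42 in CTEPH, against 13.24 ± 0.04 in Sham (adjusted p = 0.0323 and 0.0404). In both genes the groups did not overlap. TFEB lost its call in 6 and OPTN in 8 of the 10 refits without 1 library; both kept it without s1 and without s9, with an adjusted p of up to 0.0788 and 0.0976 in the other refits. By limma 0 of 7 calpain genes passed (1 before adjustment): CAPN5 was at -0.81 ± 0.28 and CAPN6 at 0.84 ± 0.53 on the log2 difference scale. CAPN6 was at 0.42 without CTEPH library s4 and at 0.49 without Sham library s8.

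The regulators known to control FBXO32 and TRIM63 in wasting muscle held 3 called genes of 27 measured, 1 higher and 2 lower. Over all genes 2.83% were called higher and 1.79% lower. Before adjustment 4 of the regulators were higher and 5 lower, against 9.84% and 10.5% of all genes. FOXO4, of the FOXO factors that drive both ligases in skeletal muscle, fell: it averaged 11.39 ± 0.41 in CTEPH, against 12.15 ± 0.26 in Sham (adjusted p = 0.0440). Its call was lost in 7 of the 10 refits without 1 library, and it was kept without s1, s8 or s9. FST, which encodes the myostatin antagonist follistatin, fell, with log2 values of 4.18 to 6.50 in the CTEPH libraries (median 5.90), against 7.25, 7.36, 7.59, 7.04 and 7.77 in the Sham libraries, and the groups did not overlap. Its difference was -1.83 ± 0.39 (adjusted p = 0.0199).

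TNFRSF12A, the receptor of the wasting cytokine TWEAK, rose: its log2 values were 13.37, 12.58, 12.72, 12.68 and 10.38 in the CTEPH libraries, against 9.02 to 11.36 in the Sham libraries, with a median of 9.94. Library s9 lay inside the Sham range and the other 4 CTEPH libraries above it. The difference was 2.37 ± 0.51 (adjusted p = 0.0199). FST lost its call without s4, s7 or s10 and TNFRSF12A without s4, s5 or s6, with an adjusted p of up to 0.0556 and 0.0530.

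Reported substrates and partners of the members were measured in 19 of 21 genes, and 2 rose and 0 fell. Over all genes 2.83% were called higher and 1.79% lower. Before adjustment 2 substrates and partners were higher and 4 lower, against 9.84% and 10.5% of all genes. Their median log2 difference was -0.24. DES, the muscle intermediate filament gene whose product ASB2 targets in mouse heart, had log2 values of 18.01, 19.05, 19.38, 19.26 and 17.70 in the CTEPH libraries, against 17.17, 17.47, 17.41, 16.76 and 17.03 in the Sham libraries. The groups did not overlap, and s1 and s9 were the CTEPH libraries nearest to Sham. The difference was 1.51 ± 0.32 (adjusted p = 0.0181) and kept its call in all 10 refits without 1 library. CHMP2B, an endosomal sorting gene whose product FBXO32 targets in mouse heart, averaged 10.59 ± 0.20 in CTEPH, against 10.01 ± 0.16 in Sham (adjusted p = 0.0336). Its call was lost in 8 of the 10 refits and kept without s1 or s9.

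Over the 13 lists together, 9 of 240 genes were called (3.75%), 5 higher and 4 lower, against 4.62% of all genes. Centring each library on cardiomyocyte markers moved every log2 difference by -0.099, and these markers include DES, itself called higher. With this centring, USP15 (limma adjusted p = 0.119), OPTN (0.0556), FOXO4 (0.0617) and CHMP2B (0.123) no longer passed. The same 4 genes and TFEB did not pass in the fit without an intensity trend, with adjusted p-values of 0.0520 to 0.0776.

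On the chromosome, the nearest measured gene with a symbol on each side of each member gave 20 neighbours. The 3260 measured genes without a symbol were not placed, so a nearer one may exist. Of the 20 neighbours 2 were higher and 1 was lower in CTEPH, where 2.83% of all genes were called higher and 1.79% lower. The nearest such gene before ASB2, PRIMA1, averaged 3.70 ± 1.01 in CTEPH, against 6.07 ± 0.73 in Sham. ATAD2, a chromatin gene after FBXO32, averaged 9.15 ± 0.52 in CTEPH, against 7.22 ± 0.15 in Sham, and POLQ, a DNA repair polymerase gene after FBXO40, 7.12 ± 0.96 in CTEPH, against 4.01 ± 1.55 in Sham (adjusted p = 0.0211, 4.98e-04 and 0.0209). The neighbours of the 4 lowered members were not called. PRIMA1 was no longer called without Sham library s2 (adjusted p = 0.0553), s6 (0.0594), s7 (0.0547) or s10 (0.0557). POLQ was no longer called without CTEPH library s4 (0.0545) or s5 (0.0589), or without Sham library s6 (0.0530) or s10 (0.0532).

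In RefSeq's annotation of Sscrofa11.1, 4 members overlap another gene: ASB14 shares 3509 bases with APPL1, RNF207 2225 bases with ICMT, FBXO40 1561 bases with HCLS1 and LNX1 2248 bases with FIP1L1. The sources used here do not give the strand setting of the counting, so reads from such pairs may not be told apart and the values of these members are uncertain to that extent. APPL1, ICMT and HCLS1 differed by -0.46 ± 0.16, 0.13 ± 0.16 and 0.33 ± 0.17 on the log2 scale, none of them called. Their unadjusted limma p-values were 0.0113, 0.426 and 0.0710. APPL1 averaged 11.16 in CTEPH, against 11.61 in Sham, above the 7.02 and 8.93 of ASB14, and it differed in the same direction. The share of ASB14 reads that could come from APPL1 was not tested. FIP1L1 was not measured under that symbol.

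The cell markers of the biopsies give the setting of these values. All 19 measured cardiomyocyte markers of 22 had log2 means of at least 14.34 in both groups, 2 of them were higher in CTEPH and 0 lower, and their summed level, as the mean log2 deviation from the gene means, was -0.16 to 0.22 in CTEPH and -0.28 to 0.04 in Sham. With each library centred on these markers, which include the called gene DES, all 4 lowered members kept their calls. That centring moved every log2 difference by -0.099. Endothelial markers were lower in 2 of 11 (levels -0.46 to -0.089 in CTEPH and -0.13 to 0.64 in Sham). All 11 endothelial differences were negative, with a median of -0.36 and 5 lower before adjustment. Over all genes 53.6% of differences were negative. Of the 12 macrophage markers 11 had a positive difference, with a median of 0.38 and 3 higher and 1 lower before adjustment. Smooth muscle and pericyte markers were split, with 5 positive and 5 negative. Markers of dividing cells were higher in all 8 measured genes (levels 0.79 to 2.26 in CTEPH and -1.77 to -1.60 in Sham). Of the smooth muscle and pericyte markers 1 of 10 was higher, of the macrophage markers 1 of 12, and of the fibroblast (11), lymphocyte (8), atrial (5) and skeletal muscle (6) markers 0 were called by limma, with 2, 0, 5 and 3 at an unadjusted p under 0.05. No measured marker was at 0. The part of these cells in the members' differences was not tested.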

How the data were processed

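The authors deposited 1 table of log2 values for Ensembl pig genes in 10 right ventricular libraries. Per the submitters' processing notes, bcl2fastq 2.18.12, cutadapt 1.15, FastQC 0.11.5, featureCounts, edgeR 3.36.0, limma 3.50.0 and the build Sscrofa11.1 were used. The sources used here do not name the aligner, annotation, strand setting or low-gene filter. The labels give the molecule as polyA RNA but name a stranded kit for total RNA, so which RNA was captured is unclear. The deposited distributions are nearly equal, as quantile normalization leaves them, so a change shared by most genes cannot appear. Values up to 11.1 match quantile means of log2(2 × count + 1) to within 1e-08, which gave back 78.9% of the table as whole counts, with a shared factor of 2 left undetermined; these give a relative depth per library (median ratio over genes with at least 5 counts in each), while total depth is unknown. The 1 in that formula understates fold changes of low genes.

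Gene symbols were matched by Ensembl identifier (12378 genes). Coordinates, counted from 1, were taken by symbol from RefSeq's gene table of Sscrofa11.1.

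All genes were fitted with limma 3.58.1 in R 4.3.3 (CTEPH against Sham, intensity trend, no covariate, two-sided, Benjamini-Hochberg over all genes, threshold 0.05). The sample titles name a pig for each library but give no animal identifier, so each library was taken as a separate pig. The p-values set the group difference against the spread between libraries. The members and lists were chosen with earlier results of these data known. Named genes are the members, up to 4 called genes of each list (or the 2 with the smallest unadjusted p), called neighbours and the 3 genes most like each member; ASB9, APPL1, ICMT and HCLS1 were added after their values were seen. One gene that this rule names is not reported here. On simulated data for CTEPH against Sham over all genes of the table with 200 changed, 43.5% of those shifted by 1 log2 unit and 87.5% of those shifted by 2 were recovered, with 5.43% and 2.23% false calls. Alternatives were other variance models, library weights, a filter, 2 other scalings and each library left out; voom on recovered counts was added after seeing the data.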

Additional observations from a re-analysis of the deposited data

Results flagged for a closer look

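In groups of 5, a highest or lowest library was looked for that stood far from the others relative to the range of its group. This was done for 39 named genes, hence 78 groups, and chance alone flags about 5% of groups. It found 4 and none among the 10 members. ASB5 was at 8.32 in CTEPH library s1, and the other 4 CTEPH libraries were at 9.46 to 9.72. TNFRSF12A was at 10.38 in CTEPH library s9, with the others at 12.58 to 13.37. CAPN5 was at 9.10 in Sham library s2, with the others at 9.89 to 10.20, and PRIMA1 was at 4.78 in Sham library s8, with the others at 6.29 to 6.55.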

How the results depend on the processing

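The 4 lowered members kept their calls under the 5 alternatives that held all of them: no intensity trend, robust moderation, library weights, centring on cardiomyocyte markers and cyclic loess. The filter that drops the lowest 25% of genes left LNX1 out and kept the other 3. With voom on recovered counts, which held only ASB14 and LNX1, both were called (limma adjusted p = 0.00365 and 0.0101). Leaving out each library in turn gave 3 to 4 lowered members, 270 to 570 higher and 117 to 392 lower genes over the table, 1 to 8 higher and 0 to 10 lower genes over the 13 lists, and 1 to 2 higher and 0 to 2 lower neighbours.

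Over the table, library weights gave 722 higher and 547 lower genes, the filter left 273 higher, and voom on recovered counts gave 159 lower. Over the 13 lists, library weights gave 8 higher and 8 lower genes, the fit without a trend 2 and 2, and centring 2 higher. Library weights gave 3 lower neighbours, and the filter 1 higher and 0 lower, since it drops PRIMA1 and POLQ. Between members, the median r was 0.042 by Spearman and -0.030 to 0.11 with each library left out, and it was negative without s9. Fits under the alternatives were compared for the members, the named list genes, the called neighbours and CUL1, and 2 of these turned sign. TRIM63 did so with centring (-0.025) or without s8 (range over refits -0.0095 to 0.18). CUL1 did so with centring (-0.089) or in 4 refits (range -0.0355 to 0.0509). The other genes most like a member were not followed in this way. Centring, which moved every difference by -0.099, also turned small positive differences among them, such as that of SGCE (0.08 uncentred). Apart from the filter and the refits, whose construction shows it, the cause was not tested. No paired analysis was possible because each library number occurs once in the labels.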
